A study of Mus musculus with 67 samples.

Results

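Itga8, Ptprf, Galm, Spata5 and Asrgl1 are 5 genes with 1 probe each whose signal in the mouse cerebral cortex was lower at 33-44 days of age, in adolescence, than at 17-21 days, around weaning. They were chosen because 1 probe of each passed that very comparison (limma, Benjamini-Hochberg adjusted p under 0.05 over all probes), so the values at these ages are given below as a description, without a test. All probes annotated with 1 gene symbol that is one of these 5 were taken, which gave 7 of the 8448 probes on the array, for 5 of 4209 named genes. Ptprf and Asrgl1 each have a second probe that did not pass. The second probe of Ptprf was higher at 33-44 days, and the sign for that of Asrgl1 changed with the arrays used. The adult arrays entered that choice only through the estimate of spread, which all groups share, and with only the compared groups in the fit 0 probes passed.

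Gene expression in the cerebral cortex of C57BL/6 mice was measured with filters of cDNA probes hybridized to radiolabeled cDNA, 1 mouse to each of 67 arrays. Mice fed ad libitum (AL) numbered 2 males and 3 females at 17-21 days, 3 males and 2 females at 33-44 days, and 5 males with 5 females at each of 6, 16 and 24 months. Mice on caloric restriction (CR), whose feed was cut in steps from early adulthood on, numbered 4 males with 5 females at 6 months, 5 with 5 at 16 months, and 3 with 5 at 24 months. The group of 24 months was 704-743 days old on AL and 673-743 days on CR, where all 3 males were 673 days old. Comparisons of diet, sex and their ages hold that gap. All mice ate regular feed freely until then, and the mice of 17-21 and 33-44 days were never restricted. Values are z-scores, in which the mean signal of an array is 0 and 1 unit is the standard deviation over the probes of that array. A difference is therefore a shift relative to the other probes and cannot be turned into a fold change. Over all arrays the passing probes of Itga8, Ptprf, Galm, Spata5 and Asrgl1 had mean z-scores of -1.11, -0.65, -0.48, -1.35 and 0.34. Their percentiles among the means of all probes were 11.5, 23.2, 30, 7.6 and 65.2. The study kept only genes whose average in a comparison was above 0, to avoid picking genes of low signal. Of these probes only that of Asrgl1 has a mean above 0.

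The 5 genes do different work. Itga8 encodes an integrin subunit that pairs with the product of Itgb1 and ties cells to matrix proteins such as fibronectin, tenascin and nephronectin. Ptprf encodes LAR, a receptor of axons and synapses with tyrosine phosphatase domains inside the cell, which binds liprins. Galm encodes galactose mutarotase, the enzyme that opens galactose breakdown by switching the sugar between its forms. Spata5 encodes an ATPase of the AAA family that acts in ribosome assembly, and Asrgl1 an enzyme that cleaves asparagine and the damaged isoaspartyl bonds of peptides. In the cortex, the weeks between weaning and adolescence are a time of myelination and of trimming of synapses.

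Some arrays stood apart. The 22 arrays numbered 46 and above differed from the 45 before them, with a median absolute shift over all probes of 0.23 in the adult mice. Those numbers include 0 arrays of 17-21 days and 2 of the 5 arrays of 33-44 days, so each juvenile value is also given within the arrays numbered 45 and below. A pair of arrays labeled as different mice, 16 months AL male replicate 2 and female replicate 2, correlated at 0.99975 where the next pair reached 0.989, and held identical values at 4312 probes. They were counted as 1 sample in means and SDs over both sexes, so that n = 9 at 16 months AL. The limma fits hold them as 2 arrays, so a fitted difference can depart slightly from that of the printed means. Of 20 neuron markers 3 had a named probe, with mean z of 0.25 for Nefl, -0.21 for Uchl1 and -0.70 for Gap43. A z-score is relative to other probes, so it does not tell whether a marker is present, and in bulk tissue fewer cells of a type and less RNA per cell cannot be told apart.

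The genes lie on 5 chromosomes of the RefSeq annotation of GRCm38.p6, with Itga8 at chr2:12106632-12301985, Ptprf at chr4:118208213-118291405, Galm at chr17:80127458-80185032, Spata5 at chr3:37419903-37579096 and Asrgl1 at chr19:9111719-9135566. The upstream sequence, over bases 250 to 51 before the start site, is shown as a description for the 4 of 5 genes with a RefSeq promoter entry. The start site is that of the promoter entry and can lie inside the gene bounds given above. A lower signal at the same age is how the genes were chosen, and shared control was not tested. Each is written 5′ to 3′ along the gene's own strand, from chr2:12301995-12302194 (minus) for Itga8, chr4:118291448-118291647 (minus) for Ptprf, chr3:37419700-37419899 (plus) for Spata5 and chr19:9135617-9135816 (minus) for Asrgl1. Capitals mark the GC box, searched as GGGCGG or CCGCCC so that both strands are covered, overlapping matches included.
Itga8: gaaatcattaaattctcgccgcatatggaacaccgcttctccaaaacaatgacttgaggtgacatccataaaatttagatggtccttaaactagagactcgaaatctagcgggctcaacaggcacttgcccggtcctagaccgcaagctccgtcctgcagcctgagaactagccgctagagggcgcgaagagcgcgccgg
Ptprf: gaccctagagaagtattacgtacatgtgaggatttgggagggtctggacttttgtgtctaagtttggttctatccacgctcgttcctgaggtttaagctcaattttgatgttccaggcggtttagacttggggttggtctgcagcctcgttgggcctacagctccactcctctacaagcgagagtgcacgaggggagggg
Spata5: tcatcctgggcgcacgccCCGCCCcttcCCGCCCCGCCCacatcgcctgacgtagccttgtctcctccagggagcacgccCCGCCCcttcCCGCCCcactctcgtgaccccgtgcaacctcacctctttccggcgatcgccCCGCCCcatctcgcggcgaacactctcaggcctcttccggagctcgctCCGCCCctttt
Asrgl1: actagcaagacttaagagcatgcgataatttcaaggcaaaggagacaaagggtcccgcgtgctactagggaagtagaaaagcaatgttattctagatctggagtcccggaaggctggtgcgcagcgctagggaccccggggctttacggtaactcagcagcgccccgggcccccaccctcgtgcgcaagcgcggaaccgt
The stretch before Spata5 held 7 GC boxes and had a GC content of 70.5%. Those before Itga8, Ptprf and Asrgl1 held 0 and had 52.0%, 51.5% and 57.5%. Over 32851 promoter windows of the same length, 24.6% held a GC box and the median GC content was 51.5%. A CCAAT box (CCAAT or ATTGG), present in 28.4% of all windows, and a TATA box (TATAAA or TTTATA), present in 9.14%, were found in 0 of the 4. An E-box (CANNTG), in 59.0% of all windows, matched 2 times before Itga8 and 1 time before Ptprf. None of these motifs was shared by all 4 stretches. The matches are letters in these windows and were not tested for binding.

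Among the receptors, Itga8 had the largest fitted difference of the 7 probes between the juvenile ages. At 17-21 days its z-score was -1.0, -0.98, -0.85, -0.72 and -0.89 in female replicate 1, female replicate 2, male replicate 1, female replicate 3 and male replicate 2. At 33-44 days it was -1.99, -1.20, -1.08, -1.76 and -1.55 in male replicate 1, male replicate 2, female replicate 1, male replicate 3 and female replicate 2. The groups did not overlap, which the choice on these arrays favors, here and for the genes below. The share of all probes without overlap is not given here, so the lack of it does not mark these probes as unusual. The spread at 33-44 days was the wider one, with a mean of -1.52 ± 0.38 against -0.89 ± 0.11 (SD, n = 5 each). The fitted difference, with the sexes weighted equally, was -0.60, and within the arrays numbered 45 and below it was -0.45. It was -0.78 in males and -0.42 in females.

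Ptprf is represented by probe 10678, which passed the comparison, and probe 14183, which did not. In the same order of mice, probe 10678 read -0.53, -0.64, -0.35, -0.27 and -0.49 at 17-21 days. It read -0.93, -0.80, -0.72, -1.03 and -1.08 at 33-44 days, below every array of 17-21 days, and the fitted difference was -0.46 (-0.34 within arrays numbered 45 and below). Probe 14183 went the other way. Its z-score was -0.55, -0.63, -0.86, -0.80 and -0.74 at 17-21 days. At 33-44 days it was 0.09, -0.83, -0.69, -0.04 and -0.14, which put 3 arrays above the younger group and 2 among it, and the fitted difference was 0.39 (0.20 within arrays numbered 45 and below). The 2 probes of Ptprf therefore gave opposite signs at these ages, and the lower signal belongs to probe 10678 rather than to every probe of the gene.

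The probe of Galm, the sugar enzyme, read -0.45, -0.40, -0.09, -0.14 and -0.27 at 17-21 days. At 33-44 days it read -0.84, -0.63, -0.53, -0.97 and -1.06, again without overlap, for means of -0.27 ± 0.16 and -0.81 ± 0.22 (SD, n = 5 each). The fitted difference was -0.55, and -0.38 within arrays numbered 45 and below.

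For Spata5, the ATPase, the arrays of 17-21 days gave -1.40, -1.30, -1.17, -0.99 and -1.04. Those of 33-44 days gave -1.88, -1.56, -1.40, -1.78 and -1.90. The groups met at -1.40, the value of 1 array in each, and 4 of the 5 older arrays lay below all younger ones. The fitted difference was -0.53, and -0.39 within arrays numbered 45 and below.

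Asrgl1, the asparaginase, is represented by probe 8583, which passed, and probe 14918. Probe 8583 read 0.51, 0.21, 0.52, 0.54 and 0.50 at 17-21 days. At 33-44 days it read 0.13, 0.26, 0.18, -0.13 and 0.04, so female replicate 2 of the younger group fell within the range of the older one. The fitted difference was -0.37, and -0.28 within arrays numbered 45 and below. Probe 14918 read 0.93, 0.86, 0.76, 0.92 and 0.77 at 17-21 days. At 33-44 days it read 1.19, 0.79, 0.89, -0.13 and 0.04, with the 2 low values in the 2 arrays numbered 46 and above. Its fitted difference of -0.29 became 0.11 within the arrays numbered 45 and below, so its sign depends on those 2 arrays. The differences of the 5 selected probes kept their sign, which their choice on these same juvenile arrays favors.

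**Figure D1:**
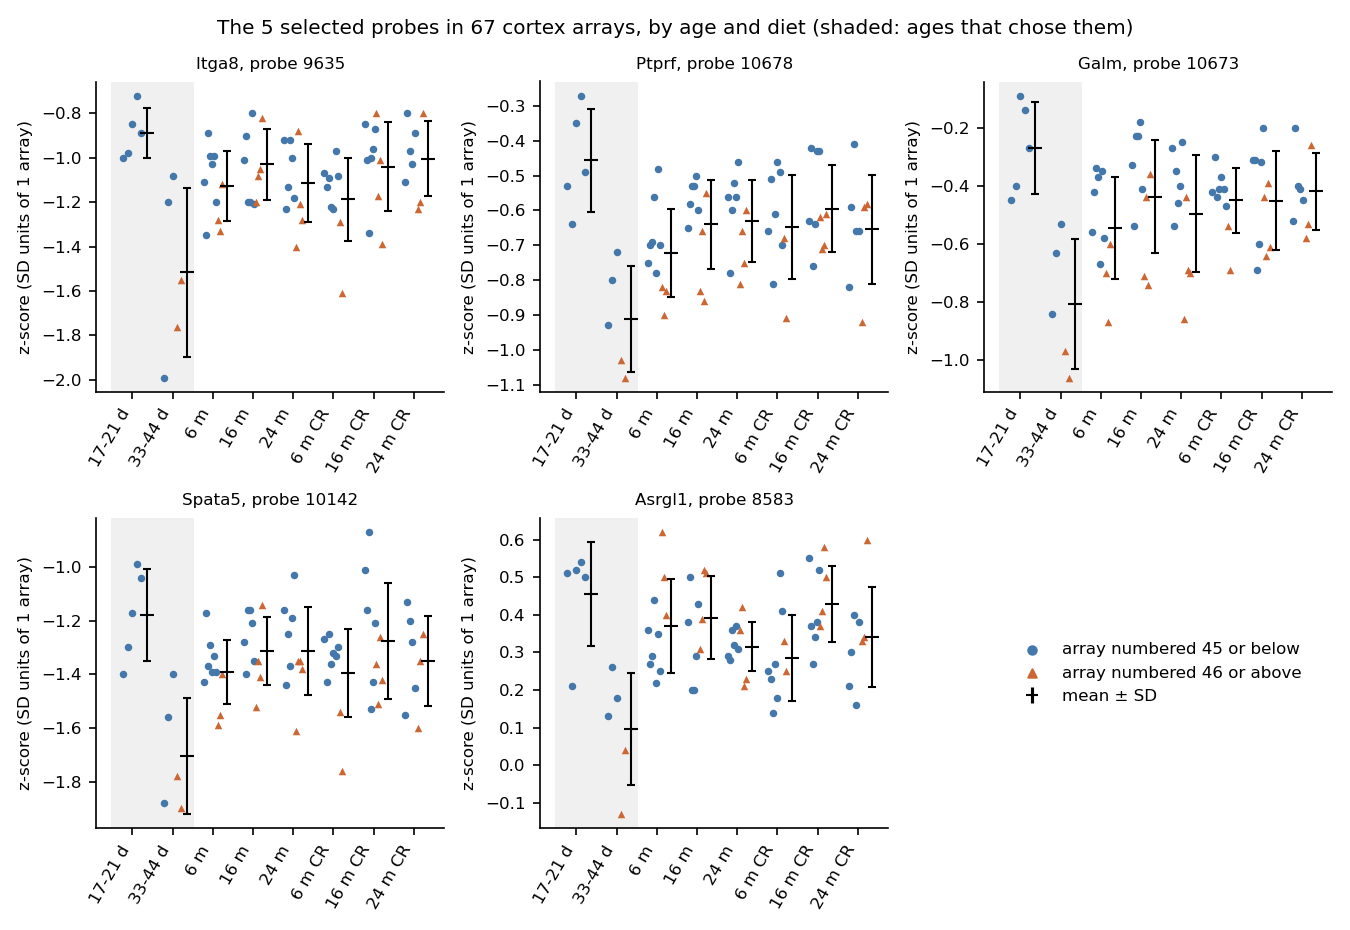
The z-score of the 5 selected probes (vertical axis, SD units of 1 array) in each array, grouped by age and diet (horizontal axis, d for days and m for months, AL unless CR is given), with circles for arrays numbered 45 or below, triangles for those numbered 46 or above, and bars for mean ± SD. In each panel the group at 33-44 days has the lowest mean and the group at 17-21 days the highest, with the adult groups between them.

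In the whole table, 8 of 8448 probes (0.0947%) passed between these ages, and all 8 were lower at 33-44 days. The other 3 were probes of Hbb-y, an embryonic globin, with -0.42, of Cd160, a receptor of lymphocytes, with -0.42, and unnamed probe 10163 with -0.58. The member nearest the threshold on its inner side was probe 8583 of Asrgl1, with -0.37. The nearest outside it were probes of Xbp1, Btbd1 and Dph5, with -0.44, -0.36 and -0.42. A difference as large as that of Asrgl1 was not rare: counted from the lowest difference, its percentile among all probes was 6.32, against 0.51 for Itga8, 0.89 for Galm, 1.18 for Spata5 and 2.48 for Ptprf probe 10678.

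What the 5 selected probes shared beside their values was a place on the filter. When the probes are laid out in their order of number as 16 blocks of 24 rows and 22 columns, a layout inferred from the values, Spata5 falls in row 5, Itga8, Galm and Ptprf in row 6, and Asrgl1 in row 7, in blocks 1, 3, 4 and 5. All 8 passing probes lay in rows 5 to 7. Among those that are not members, the probe of Hbb-y lay beside Ptprf probe 10678 and probe 10163 beside Spata5. Of the 1056 probes in those rows, 86.6% were lower at 33-44 days, against 44.1% of the other 7392. The median difference ran from about -0.20 in rows 5 to 7 to 0.23 in row 24. The second probe of Ptprf lies in row 21, where the median was 0.16, and the second probe of Asrgl1 in row 7 of block 13.

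The slope over the rows was not the same in every array. It was measured as the median deviation of the first 8 rows minus that of the last 8. At 17-21 days it was 0.08, -0.19, 0.22, 0.31 and 0.24 in the order of mice above. At 33-44 days it was 0.11, 0.11, 0.17, -0.61 and -0.63. The 2 lowest values of all 67 arrays were those of male replicate 3 and female replicate 2, numbered 56 and 57. The means were 0.13 ± 0.20 and -0.17 ± 0.41 (SD, n = 5 each), and the means of the 6 adult groups lay from -0.05 to 0.09. Single adult arrays with the next numbers were also low, at -0.39, -0.42, -0.32 and -0.29 in arrays 58, 59, 61 and 62. Array 60 had 0.19, array 65 had 0.08, and arrays 46 to 55 ran from -0.10 to 0.11. What the order of the arrays contributed to the slope was not tested. The order of the juvenile arrays was partly that of the selected probes. Their lowest value came from array 56 or 57 for 4 of the 5, the exception being Itga8.

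**Figure D2:**
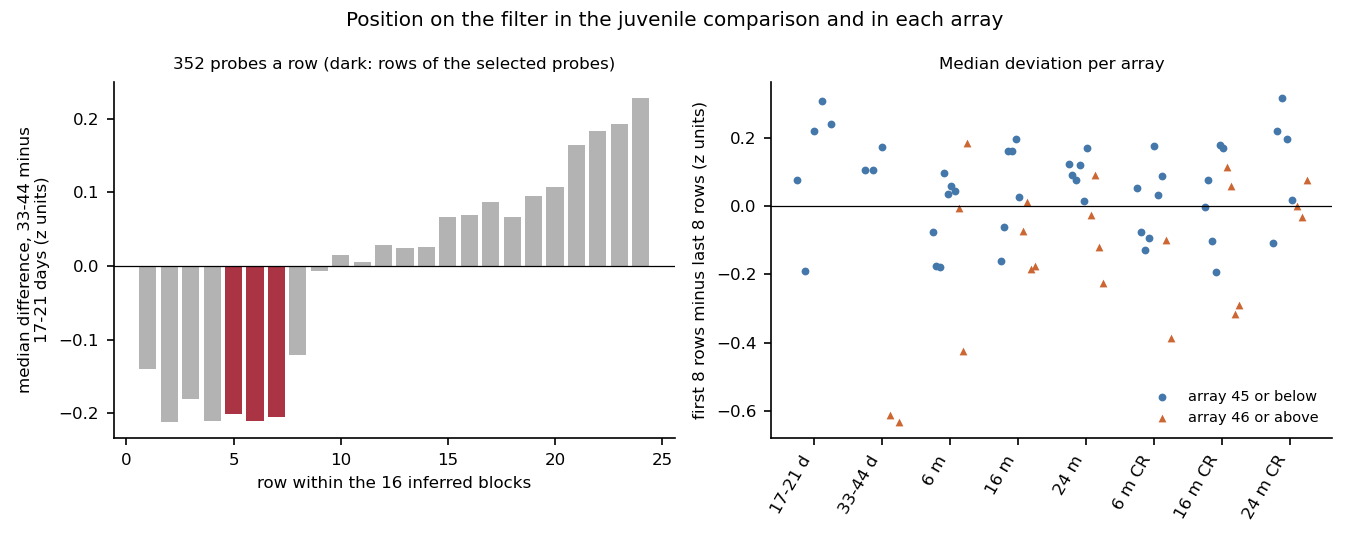
Left, the median difference between 33-44 and 17-21 days (vertical axis, z units) over the 352 probes of each row of the inferred layout (horizontal axis), with the rows of the selected probes dark. Right, the median deviation of the first 8 rows minus that of the last 8 in each array (z units), by age and diet. Rows 1 to 8 have medians below 0 and rows 10 to 24 above 0, and 2 arrays of 33-44 days lie at -0.61 and -0.63.

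The probes next to the members moved with them. Within a window of 5 by 5 positions, the difference between the juvenile ages was below 0 for 18 of 19 neighbors of Itga8, 24 of 24 of Ptprf probe 10678, 24 of 24 of Galm, 14 of 14 of Spata5 and 24 of 24 of Asrgl1 probe 8583. The median differences of these neighbors were -0.31, -0.30, -0.39, -0.41 and -0.32. They belong to unrelated genes, among them Ntrk2 beside Itga8, Igf2 and Rpl24 beside Ptprf, Sin3a beside Galm, Cnot1 beside Spata5 and Nipbl beside Asrgl1. Around the second probe of Ptprf, by contrast, 4 of 24 neighbors were lower and the median was 0.14. Around the second probe of Asrgl1, 18 of 19 were lower, with a median of -0.25.

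When the mean deviation of the neighbors was subtracted in each array, the difference shrank to -0.32 for Itga8, -0.15 for Ptprf probe 10678, -0.17 for Galm, -0.13 for Spata5 and -0.08 for Asrgl1 probe 8583, and 0 of 8448 probes passed. All 5 stayed below 0, on the arrays that chose them. Counted from the lowest corrected difference of all probes, the percentile was 3.46 for Itga8 and 16.97 for Ptprf probe 10678. It was 13.02 for Galm, 19.87 for Spata5 and 28.86 for Asrgl1 probe 8583. Corrected means at 17-21 and 33-44 days were -0.58 ± 0.05 and -0.73 ± 0.09 for Ptprf and -1.03 ± 0.11 and -1.40 ± 0.41 for Itga8 (SD, n = 5 each). The lowest corrected value of Itga8, -2.10 in male replicate 1, was far from the other 4, which ran from -1.41 to -1.13. The second probes came to 0.21 for Ptprf and -0.05 for Asrgl1. What the position on the filter contributed to the uncorrected differences was not tested beyond these values.

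**Figure D3:**
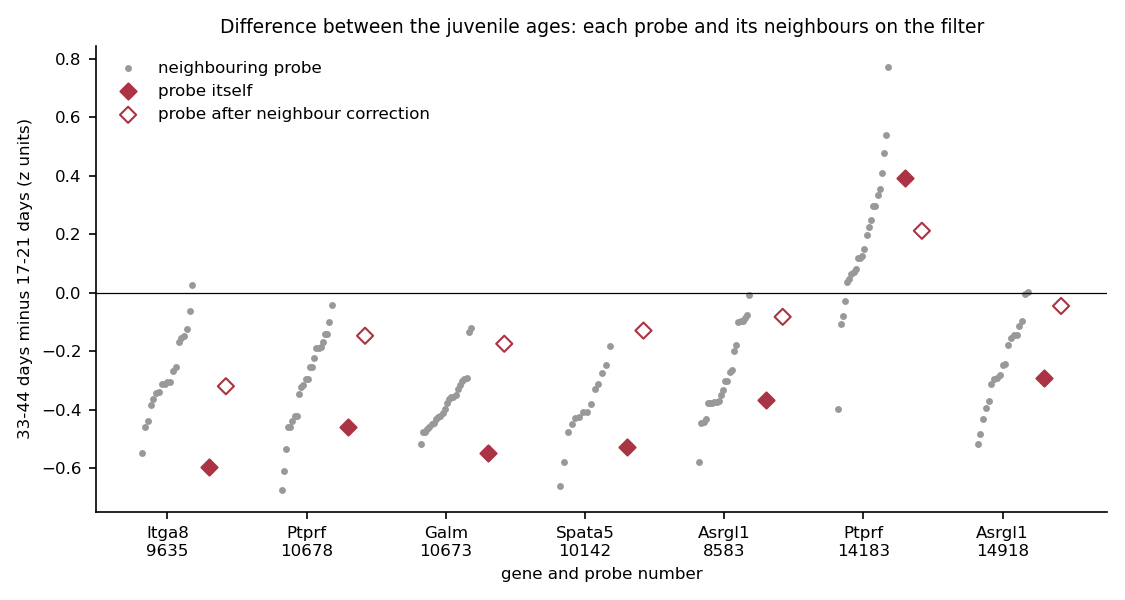
Difference between 33-44 and 17-21 days (vertical axis, z units) for each probe of the 5 genes (filled diamonds), for its neighbors within a window of 5 by 5 positions on the filter (gray points) and for the probe after the mean deviation of its neighbors was subtracted (open diamonds). The gray points lie below 0 for nearly all neighbors of the 5 selected probes, and the corrected differences run from -0.32 to -0.08.

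Cell markers were set beside the juvenile values, and their part in them was not tested. Of the blood cell list, 5 of 7 measured genes were lower at 33-44 days, with a median difference of -0.19 against 0.003 over all probes, and Hbb-y passed. The mean z of the blood markers ran from 0.27 to 0.30 over the arrays of 17-21 days and from 0.02 to 0.31 over those of 33-44 days. Of the microglia list 4 of 5 were lower (median -0.18), with array means from 0.21 to 0.34 and from -0.02 to 0.33. Medians were -0.18 for meninges and choroid plexus (4 of 7 lower), -0.16 for blood vessels (2 of 2), -0.07 for astrocytes (2 of 4), 0.02 for oligodendrocytes (1 of 3) and 0.14 for neurons (1 of 3). In the lists other than blood cells 0 genes passed. The marker differences were not corrected for place on the filter.

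At 6 months the 5 signals were higher than in adolescence. In the 57 adult arrays Itga8 ran from -1.61 to -0.80, with a mean at 6 months AL of -1.13 ± 0.16 (SD, n = 10), which was 0.39 above that of 33-44 days and 0.24 below that of 17-21 days. At 6 months AL the mean was -0.72 ± 0.13 for Ptprf probe 10678, -0.55 ± 0.18 for Galm, -1.39 ± 0.12 for Spata5 and 0.37 ± 0.12 for Asrgl1 probe 8583 (SD, n = 10 each). Of the 57 adult arrays, 1 lay below the mean of 33-44 days for Itga8, 1 for Ptprf probe 10678, 2 for Galm, 1 for Spata5 and 0 for Asrgl1. Above the mean of 17-21 days lay 8, 4, 7, 10 and 11. These counts use the arrays that chose the genes and are a description. With the neighbor correction, the gap of 6 months AL over 33-44 days was 0.29 for Itga8, 0.11 for Asrgl1 probe 8583, 0.10 for Spata5, 0.08 for Galm and 0.03 for Ptprf probe 10678, so most of it was lost for all but Itga8. The corrected means at 17-21 days, 33-44 days and 6 months AL were -0.58, -0.73 and -0.70 for Ptprf probe 10678, and -1.03, -1.40 and -1.11 for Itga8. Because the counts rest on the juvenile means that chose the genes, they cannot tell which juvenile age stands apart from the adults.

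The other 5 adult groups lay close to 6 months AL. Over 16 months AL, 24 months AL, 6 months CR, 16 months CR and 24 months CR, the mean of Itga8 was -1.03 ± 0.16, -1.12 ± 0.18, -1.19 ± 0.19, -1.04 ± 0.20 and -1.0 ± 0.17 (SD, n = 9, 10, 9, 10 and 8, here and below). For Ptprf probe 10678 the means were -0.64 ± 0.13, -0.63 ± 0.12, -0.65 ± 0.15, -0.60 ± 0.13 and -0.65 ± 0.16. Every step between neighbors in the order of these means was smaller than the SD of either group. Galm had -0.44 ± 0.19, -0.50 ± 0.20, -0.45 ± 0.11, -0.45 ± 0.17 and -0.42 ± 0.13. Spata5 had -1.31 ± 0.13, -1.31 ± 0.16, -1.40 ± 0.16, -1.28 ± 0.22 and -1.35 ± 0.17. Asrgl1 probe 8583 had 0.39 ± 0.11, 0.32 ± 0.07, 0.29 ± 0.12, 0.43 ± 0.10 and 0.34 ± 0.13, the highest mean being that of 16 months CR. No adult group of any of these probes was separate from the others.

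The first adult comparison asked whether the genes changed from 6 to 16 months on the AL diet, and 0 of the 7 probes passed (limma, Benjamini-Hochberg adjusted p over 8448 probes), against 0% of all probes. At an unadjusted p under 0.05 it was 0 of 7, against 3.04% of all probes. The differences of the 5 selected probes were all positive, from 0.003 for Asrgl1 to 0.13 for Galm, whose 95% interval was -0.03 to 0.29 (limma, adjusted p = 0.999). With the split at array 46 as a block, 1 of the 7, Galm with 0.15, had an unadjusted p under 0.05 (limma, adjusted p = 0.633), against 7.42% of all probes. With array cycle and split as a block, 3 did, namely Spata5 (0.13), Galm (0.15) and Ptprf probe 10678 (0.11), with adjusted p of 0.592 to 0.624 (limma), against 7.91% of all probes. Within arrays numbered 45 and below the 5 differences ran from 0.02 to 0.14, and within those numbered 46 and above from -0.07 to 0.23.

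From 16 to 24 months on the AL diet, the interval of late aging, 0 of 7 probes passed, against 0% of all probes, and 0 of 7 had an unadjusted p under 0.05, against 6.57% (limma). The 5 differences ran from -0.08 for Galm to -0.001 for Ptprf probe 10678, and this comparison shares the 16 months AL arrays with the one before. The 95% interval was -0.24 to 0.11 for Itga8 and -0.13 to 0.13 for Ptprf probe 10678. Within arrays numbered 45 and below the differences ran from -0.06 to 0.02, and within those numbered 46 and above from -0.16 to 0.02.

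Diet was compared over the 3 adult ages together. Over the adult AL arrays the lowest, median and highest z-scores were -1.40, -1.11 and -0.80 for Itga8, and over the CR arrays -1.61, -1.07 and -0.80. For Ptprf probe 10678 they were -0.90, -0.66 and -0.46 on AL and -0.92, -0.63 and -0.41 on CR. The receptors thus covered nearly the same range on both diets. For Galm they were -0.87, -0.44 and -0.18 on AL and -0.69, -0.42 and -0.20 on CR. For Spata5 they were -1.61, -1.35 and -1.03 on AL and -1.76, -1.33 and -0.87 on CR, and for Asrgl1 probe 8583 0.20, 0.36 and 0.62 on AL and 0.14, 0.34 and 0.60 on CR. In each of the 5 the ranges overlapped almost fully. Again 0 of 7 probes passed, against 0% of all probes, with 0 of 7 at an unadjusted p under 0.05, against 0.71% (limma). CR minus AL was 0.01 for Itga8 (95% interval -0.09 to 0.12), 0.02 for Ptprf probe 10678 (-0.05 to 0.10), 0.04 for Galm (-0.06 to 0.14), -0.01 for Spata5 (-0.10 to 0.08) and -0.005 for Asrgl1 probe 8583 (-0.07 to 0.06). None of these 5 intervals reached beyond 0.14 on either side of 0. Within arrays numbered 45 and below the 5 differences ran from -0.02 to 0.04, and within those numbered 46 and above from -0.06 to 0.12.

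Males and females were compared over the 6 adult groups of age and diet, where 0 of 7 probes passed, against 0% of all probes, and 0 of 7 had an unadjusted p under 0.05, against 0.971% (limma). The smallest p was that of Ptprf probe 10678, with -0.07 for males minus females (95% interval -0.14 to 0.01, limma, adjusted p = 1). With the split as a block it was the 1 probe of the 7 with an unadjusted p under 0.05 (limma, adjusted p = 0.999), against 2.44% of all probes. Within arrays numbered 45 and below the 5 differences ran from -0.05 to 0.04, and within those numbered 46 and above from -0.10 to -0.01. Whether the step from 16 to 24 months differed between the diets was tested as an interaction, in which 0 of 7 passed, against 0% of all probes, and 0 of 7 had an unadjusted p under 0.05, against 0.888% (limma). The interaction ran from -0.08 for Spata5 to 0.09 for Galm, and from -0.15 to 0.06 and from -0.11 to 0.14 on either side of the split. At 24 months the CR males were younger than every AL mouse, so age and diet are not fully separate there.

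**Figure D4:**
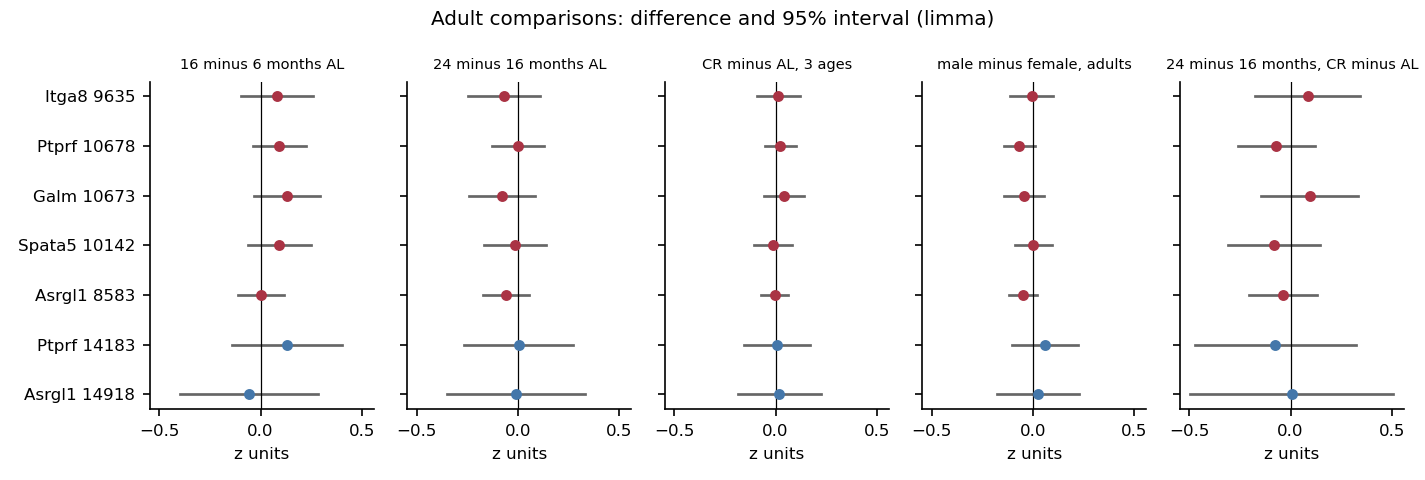
Difference in z units (horizontal axis) with its 95% interval from limma for the 7 probes (rows) in the 5 adult comparisons (panels), with the 5 selected probes in red and the second probes of Ptprf and Asrgl1 in blue. Every interval includes 0.

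The second probes varied more among adults, and mostly with array number. Probe 14918 of Asrgl1 had a mean of 0.85 over the 37 adult arrays numbered 45 and below and of 0.21 over the 20 numbered 46 and above, and probe 14183 of Ptprf had -0.71 and -0.25. The fitted shifts across the split were -0.66 and 0.47, at percentiles 92.8 and 81.7 of the absolute shift over all probes. Those of the selected probes were smaller, at -0.12 for Itga8, -0.14 for Ptprf, -0.21 for Galm, -0.17 for Spata5 and 0.08 for Asrgl1. The choice favors this contrast, because it used the spread over all arrays and a probe of small spread passes more easily. The intervals of the second probes were the widest, reaching -0.50 to 0.51 for Asrgl1 probe 14918 in the interaction.

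**Figure D5:**
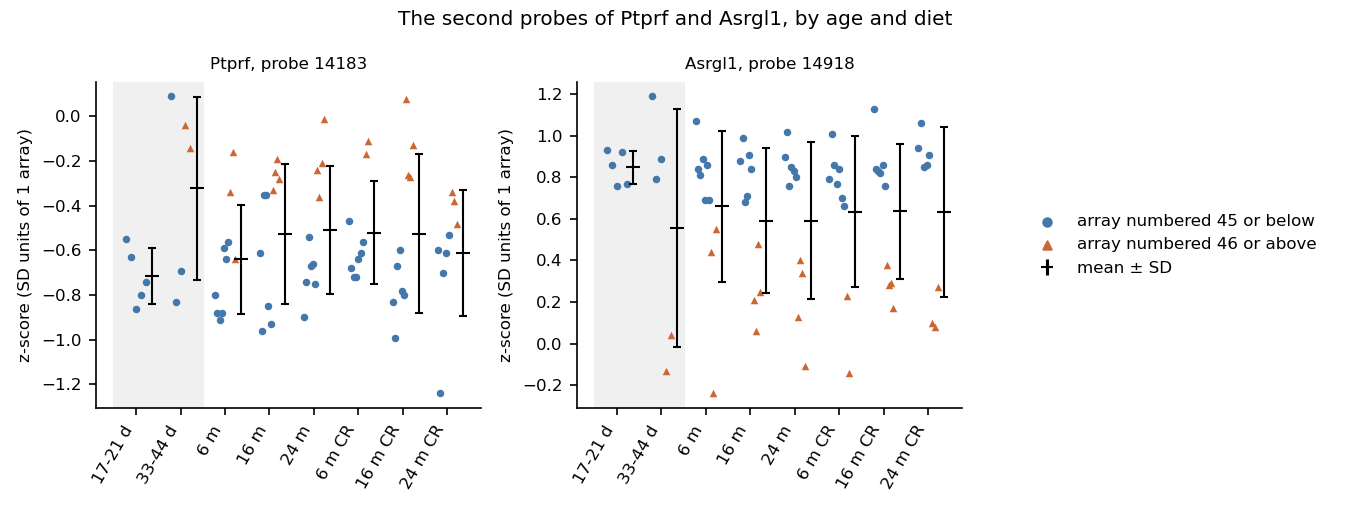
The z-score of the second probes of Ptprf and Asrgl1 (vertical axis, SD units of 1 array) by age and diet (horizontal axis, d for days and m for months, AL unless CR is given), with circles for arrays numbered 45 or below, triangles for those numbered 46 or above, and bars for mean ± SD. For Asrgl1 probe 14918 the triangles lie below the circles in every group that holds both.

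Whether the genes varied together from mouse to mouse was asked in 52 adult arrays, as deviations from the mean of the same age, diet, sex and side of the split. Galm and Ptprf probe 10678, which lie 5 columns apart in the same row and block, correlated at r = 0.574 (Spearman 0.596, adjusted p = 0.00036 and 0.00096, permutation test within groups, 100000 resamples, 12 relations). The r was 0.496 without the 2 farthest arrays, 0.646 in the 36 arrays numbered 45 and below, 0.06 in the 16 numbered 46 and above and 0.515 after the neighbor correction. The other 9 pairs of selected probes ran from 0.012 to 0.475 by Pearson, with adjusted p of 0.0669 or above, and 3 of them had an adjusted p under 0.05 by Spearman (permutation test). The 2 probes of Ptprf correlated at -0.092 (Spearman -0.073) and those of Asrgl1 at 0.269 (Spearman 0.218), with adjusted p of 0.567 and 0.355 (permutation test). After the neighbor correction the 10 pairs ran from -0.344 to 0.515. As a description, each probe followed its own neighbors, at r = 0.603 for Itga8, 0.78 for Ptprf probe 10678, 0.754 for Galm, 0.381 for Spata5 and 0.835 for Asrgl1 probe 8583, where the median over all probes was 0.656.

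The probes most alike to each gene were sought by the correlation of the 16 group means, which include the groups that chose the members. For Itga8 these were Dph5 (r = 0.923), Spata5 (0.917) and Lima1 (0.916). Ptprf probe 10678 was most like Galm (0.955), Lamp2 (0.948) and Txn1 (0.943), and Galm was most like Dnajc3 (0.966), Kif3a (0.966) and Ptprf (0.955). For Spata5 they were Dnajc3 (0.972), Dctn1 (0.963) and Dph5 (0.946), and for Asrgl1 probe 8583 Mrpl3 (0.964), Mgrn1 (0.938) and Xbp1 (0.932). All 15 matches lay in rows 2 to 7, where those after the neighbor correction lay in rows 6 to 23. After that correction, 14 of the 15 were other genes, such as Kdm5b for Itga8 (0.911), Eif4g2 for Ptprf (0.84), Gpr37 for Galm (0.842) and Pdk3 for Spata5 (0.861), while Mrpl3 stayed on the list of Asrgl1 (0.793). Group means share the arrays, the filter position and the split, so these correlations carry no test.

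Relatives of the genes were followed in lists of their pathways. Of 6 measured integrins and matrix ligands other than Itga8, 3 were higher and 3 lower at 33-44 days, with a median of 0.02 and none past the threshold. Nephronectin (Npnt), a ligand of the integrin, had -0.40, and the partner subunit Itgb1 had -0.02. Of 9 other receptor phosphatases and partners, 6 were higher and 3 lower (median 0.03), with -0.05 for Ptprd and -0.10 for Ptprs, the closest relatives of Ptprf, and -0.28 for the liprin Ppfibp2. Of 10 other genes of galactose and hexose metabolism, 9 were lower (median -0.12), from -0.31 for B4galt5 to 0.31 for B4galt1, and Galt, which acts later in galactose breakdown, had -0.02. Of 11 other genes on the list of AAA-type ATPases, which also holds the partner Cinp, 6 were higher (median 0.14), from -0.48 for the microtubule-severing Spast to 0.68 for the mitochondrial protease Yme1l1. Of 6 other genes of asparagine and aspartate metabolism, 5 were lower (median -0.15), with 0.12 for asparagine synthetase, Asns. In none of these 5 lists did a gene other than a member pass, and the median over all probes was 0.003. Over all probes 4175 were lower and 4267 higher. The list values carry no neighbor correction, and the median difference was below 0 in rows 1 to 8 of the filter and above 0 in rows 10 to 24. Whether the lower genes of a list share more than their place on the filter was not tested.

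In the adult comparisons 0 genes of these lists passed, as was so for all probes. The smallest unadjusted p per list belonged to Itgb1, higher by 0.11 from 6 to 16 months AL (limma, adjusted p = 0.999), to Ptprg, 0.09 higher in males (unadjusted p under 0.05, adjusted p = 1), to B4galt4, 0.10 from 16 to 24 months (adjusted p = 0.777), to Vps4a, -0.10 on CR (adjusted p = 1), and to Got2, -0.08 in males (adjusted p = 1). The genes next in order were Tnc with 0.09 and B4galt1 with 0.19 from 16 to 24 months, Pcmt1 with -0.10 over the same interval, Ppfibp2 with 0.12 from 6 to 16 months, and Afg3l2 with -0.15 in the interaction. From 16 to 24 months 10 of the 11 other genes on the ATPase list were higher, none past the threshold, with a median of 0.07 against -0.004 over all probes. Over all probes 4071 were higher and 4366 lower. The smallest rise was 0.004 for Katna1, and 0 of the 11 had an unadjusted p under 0.05 (limma). Whether these genes rise together was not tested, and their place on the filter was not corrected for. The gene that was lower, with -0.06, was Cinp.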

How the data were processed

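The authors hybridized radiolabeled cortex cDNA, 1 mouse to a filter, and standardized the log intensities of each array. The values as deposited are the score of each probe on that scale (z-score), with log base and background treatment not given in the sources used here, and intensities were not used here. No depth applies, so the number of arrays limits the precision. Where nothing else is said, n counts mice. Groups came from the labels. The description of 1 array of 24 months AL males repeats the name of another array, and its characteristics were used. Means of 16 groups (age, diet and sex) were fitted over 67 arrays with limma 3.58.1 in R 4.3.3, tests were two-sided, and Benjamini-Hochberg adjustment covered 8448 probes (threshold 0.05). The platform annotation gave 4875 probes 1 symbol, 224 several and 3349 none, and 1 value was missing. A probe was named by having 1 symbol, per gene list by the highest mean, the 2 genes with the smallest p were named, and for each selected probe the 3 named probes most alike by correlation of group means. The members and lists were chosen with earlier results of these data known. The layout of 22 columns was inferred from the values. The scripts were tested on simulated data. Alternatives were other normalizations, a filter, blocks, subsets of arrays, the neighbor correction and leaving out each array.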

Additional observations from a re-analysis of the deposited data

Results flagged for a closer look

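Among 56 sets of values (7 probes in 8 groups of age and diet), 4 had 1 array far from the others by Dixon's criterion, where chance gives about 1 in 20. Asrgl1 probe 8583 read 0.21 in female replicate 2 of 17-21 days, against 0.50 for the next lowest. Itga8 read -1.61 in an array of 6 months CR, against -1.29 for the next. Probe 14183 of Ptprf read -1.24 in an array of 24 months CR, against -0.70, and probe 14918 of Asrgl1 read -0.24 in an array of 6 months AL, against 0.44. In this order the arrays were numbered 16, 58, 12 and 59, with slopes over the filter rows of -0.19, -0.39, 0.22 and -0.42. What place on the filter or array number contributed to these values was not tested.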

How the results depend on the processing

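The juvenile differences of the 5 selected probes stayed below 0 under every alternative that gave a value, which their choice on these juvenile arrays favors. In the adult comparisons 0 of the 7 probes passed under any alternative or with any array left out. The median juvenile difference of the 5 selected probes, -0.53, lay between -0.65 and -0.40 with 1 array left out. It became -0.15 with the neighbor correction and -0.18 with it plus array cycle and split as a block. With that last setting the single differences were -0.12 for Asrgl1, -0.29 for Itga8, -0.21 for Spata5, -0.18 for Galm and -0.12 for Ptprf, and the second probe of Asrgl1 had 0.07 (0.11 in arrays numbered 45 and below). The number of probes passing in the whole table, 8, became 1 among probes with mean z above 0 (Asrgl1 probes are the only member probes kept there, and neither passes), 0 with only the compared groups, 70 with the split as a block, 21 with cycle and split, and 0 in arrays numbered 45 and below or with either neighbor correction. With 1 array left out it ran from 0 to 441. It was 0 without 33-44 days male replicate 1, male replicate 3 or female replicate 2, or without 17-21 days male replicate 1, male replicate 2 or female replicate 3. It was 441 without 33-44 days female replicate 1, 214 without male replicate 2, 72 without 17-21 days female replicate 2, and 31, 24 and 16 without 6 months CR female replicate 5, 6 months AL male replicate 5 and 24 months CR male replicate 2. The cause was not tested.

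From 16 to 24 months AL, 92 probes of the whole table passed with cycle and split as a block. In arrays numbered 46 and above, 1 passed for diet and 1 for sex. The adult differences that changed sign were all small. For Asrgl1 from 6 to 16 months they were 0.00 with quantile normalization or the split as a block, -0.01 with median and MAD, and -0.07 in arrays numbered 46 and above. For Ptprf from 16 to 24 months they were 0.00 with quantile normalization, 0.01 with median and MAD, 0.02 in arrays numbered 46 and above or without the near-identical pair, and 0.03 with either neighbor correction. For Spata5 over that interval the value was 0.02 in arrays numbered 45 and below, without that pair, or with either correction. For diet they were -0.02 for Galm in arrays numbered 45 and below, and for Itga8 -0.05 in those numbered 46 and above and -0.01 with either correction. For sex they were 0.02 for Itga8 with either correction, and for Spata5 0.00 with quantile normalization or without the pair, -0.01 with the split and -0.05 in arrays numbered 46 and above. In the interaction they were 0.00 for Spata5 and 0.06 for Asrgl1 in arrays numbered 46 and above, and 0.01 for Asrgl1 without the pair. With 1 array left out, signs changed for Asrgl1 from 6 to 16 months (-0.02 to 0.03) and by diet (-0.02 to 0.00), Ptprf from 16 to 24 months (-0.02 to 0.02) and by diet (0.00 to 0.04), Spata5 from 16 to 24 months (-0.05 to 0.02), by diet (-0.03 to 0.00) and by sex (-0.02 to 0.01), and Itga8 by sex (-0.02 to 0.01).

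No paired analysis was possible because, by the labels, each array holds a different mouse. The replicate numbers used here only name arrays.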
